A study of Homo sapiens with 4 samples.

Results

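De novo nucleotide synthesis was followed through 10 genes of its purine and pyrimidine branches in a human colorectal cancer line. The 10 are PPAT, GART, PFAS, PAICS, ADSL, ATIC, IMPDH2 and GMPS of the purine branch and CAD and CTPS1 of the pyrimidine branch. They are named by symbol as enzymes of these routes, with earlier results of these data known, and all 10 were found among the 20323 gene rows of each library and passed the filter on low counts. Messenger RNA was sequenced from a 5-FU-resistant derivative of HCT8 (HCT-8), an established cell line from a human colorectal tumour. The control group (NC, 2 libraries) carried negative control plasmids, and the METTL14 group (OE, 2 libraries) carried METTL14 overexpression plasmids. METTL14 is the partner of METTL3 in the complex that writes N6-methyladenosine on mRNA. Cells of both groups were resistant to 5-fluorouracil (5-FU) and both received cycloheximide (CHX), which blocks translation elongation, at 100 ug/mL, so no level here comes from cells without that drug or from the parental line. The series states that the work was done in 2 independent experiments. The labels give neither the plasmid's promoter nor whether the resistant line is 1 clone.

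The purine ring is built stepwise on phosphoribosyl pyrophosphate, with nitrogen from glutamine, glycine and aspartate and carbon from glycine, carbon dioxide and formyl-tetrahydrofolate, up to IMP, from which AMP and GMP branch. The pyrimidine ring is closed first and joined to the ribose afterwards, giving UMP and, after phosphorylation and amination, CTP. Dividing cells, colorectal cancer cells included, draw on these routes for RNA and DNA, and 5-FU is a uracil analog that is converted into the nucleotides of the same pools.

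Library totals lay between 19206663 and 20161078 counts. METTL14 mRNA itself was 24.6 and 30.7 CPM (counts per 1000000 after scaling of library sizes) in the controls and 390 and 421 CPM with the plasmid (log2 fold change 3.88, SE 0.141, edgeR adjusted p = 7.33e-05), and METTL3 was lower (log2 fold change -0.78, SE 0.111). All 8 epithelial markers examined, such as EPCAM and CDX2, were present at 35.3 CPM or more in every library, 3 of them lower and 3 higher with METTL14, and they summed to 18140 and 11813 CPM in the controls and 9230 and 9012 CPM with METTL14. KRT8 and KRT18, both lower, held most of this sum, while EPCAM was not called (log2 fold change -0.01) and CDX2 was higher (0.44). Of 6 leukocyte markers CD3E had no count and PTPRC at most 1, while 2 (CD14 and CD68) were higher with METTL14. The leukocyte list summed to 19.6 to 20.4 CPM in controls and 70.0 to 70.3 CPM with METTL14. Most of it was CD68, at 18.8 and 17.3 CPM in the controls and 67.5 and 66.35 CPM with METTL14. Of 6 fibroblast markers 2 were higher, and the list summed to 12.6 to 16.0 and 17.98 to 19.6 CPM. Of 4 endothelial markers KDR had no count and none was called, and the list summed to 0.411 to 0.988 and 1.53 to 1.85 CPM. The part of these markers in the results was not tested. In bulk RNA, fewer cells of a kind and less RNA per cell cannot be told apart.

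PPAT and PAICS, the genes of the committed step and of a later pair of steps, lie head to head on chromosome 4, and their shared start region is shown because both mRNAs fell. Promoter windows of 300 bases (250 before to 50 after a start) from RefSeq on GRCh38.p14 were found for 8 of the 10 genes, with none for ADSL and IMPDH2, and a gene with several windows is represented by the one nearest its GENCODE start. The stretch between the GENCODE starts of PPAT (minus strand) and PAICS (plus strand) is 125 bases long, and it is set beside a stretch of equal length just before the RefSeq start of CAD, the 1 gene of the 10 that was not called. Both are printed on the plus strand, with GC boxes (GGGCGG or its complement) in capitals.
PPAT to PAICS, chr4:56435616-56435740: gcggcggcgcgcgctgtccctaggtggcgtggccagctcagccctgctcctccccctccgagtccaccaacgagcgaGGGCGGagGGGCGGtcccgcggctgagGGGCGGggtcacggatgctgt
CAD, chr2:27217244-27217368: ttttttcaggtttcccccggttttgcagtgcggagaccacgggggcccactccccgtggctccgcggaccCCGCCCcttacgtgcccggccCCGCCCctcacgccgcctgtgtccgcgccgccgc

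Of these 8 windows 7 held a GC box on either strand, where 45% of all 35116 RefSeq windows did. The windows of PPAT and PAICS overlap and hold the same 3 GC boxes, those printed above. The share over all windows counts every window of a gene with several. CACGTG, the E-box read by MYC and USF proteins and the same on both strands, was in the windows of PPAT, PAICS and ATIC, against 7.26% of all windows. PPAT and PAICS share a single copy of it, because their windows overlap, so the 3 windows hold 3 sites in all. These sites are printed with the E-box in capitals, because the MYC transcript also changed.
PAICS and PPAT, chr4:56435776-56435801: aaagctgtatttgctgCACGTGgaaa
ATIC before its start, chr2:215312003-215312028: gccggcgggcCACGTGataagcccgg
ATIC after its start, chr2:215312078-215312103: cctacctgcgCACGTGgtgccgccgc
The PAICS site begins 40 bases after the RefSeq start of PAICS, and the ATIC sites begin 46 bases before and 29 bases after the RefSeq start of ATIC. CCAAT, on either strand, was in 2 of the 8 windows (GART and CAD), against 34.6% of all windows. The E2F letters TTTCGCGC and TTTGGCGC (both strands, in 1.15% of all windows) were in none of the 8. A match is a run of letters and no evidence of binding. Bases outside the windows were not searched, so a gene without a match, CAD included, may hold one nearby.

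Of the 10 genes, 9 were lower with METTL14 and none was higher (quasi-likelihood test of edgeR, with a Benjamini-Hochberg threshold of 0.05 over 12700 genes), while 28.1% of all genes tested were lower and 27% higher. The 9 fall into 5 with log2 fold changes of -0.86 to -1.61 (PFAS, CTPS1, PAICS, ADSL and PPAT) and 4 with -0.31 to -0.47 (GART, ATIC, GMPS and IMPDH2). CAD, at -0.23, did not pass the test. The median log2 fold change was -0.67, against -0.01 for all genes tested. With a trend of the fold changes on transcript length and GC content removed, 7 of the 10 were lower, against 26.3% of all genes tested. The grouping then changed: PPAT was at -0.34, GART at -0.44 and CAD, now called, at -0.76. ATIC, IMPDH2 and GMPS were then not called. For all 10 genes both METTL14 libraries lay below both controls, a pattern seen in 40% of the genes tested, with 39.8% showing the opposite one. When either METTL14 library was left out, 5 of the 9 calls remained, those of the 5 larger falls, and the same 5 were called when the test asked for a change beyond 1.5-fold (10.7% of all genes were then called lower).

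**Figure D1:**
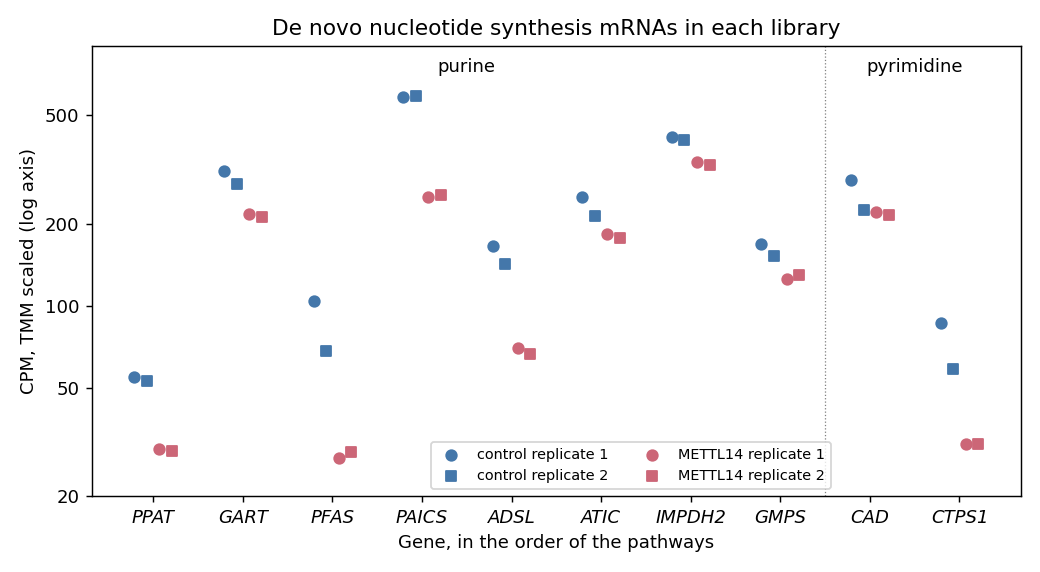
Level of each of the 10 mRNAs in CPM (log axis) in the 2 control libraries (blue) and the 2 METTL14 libraries (red), 1 point per library, in pathway order with the purine genes left of the dotted line. The METTL14 points lie below the control points for each gene, by the least for CAD (215.7 to 220.2 against 224.1 to 288.7 CPM), and the controls spread most for PFAS, CTPS1 and CAD.

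PPAT, glutamine phosphoribosylpyrophosphate amidotransferase, commits phosphoribosyl pyrophosphate to purines (ENSG00000128059, GRCh38 chromosome 4, 56393362 to 56435615, minus strand). Its counts were 1052 and 1028 in control libraries and 580 and 592 in METTL14 libraries, or 54.7 and 52.8 against 29.8 and 29.2 CPM. Replicates of a group differed by under 2 CPM and the groups did not overlap, with a fall of 1.82-fold (log2 fold change -0.86, SE 0.106, edgeR adjusted p = 0.000561). With a trend of the fold changes on transcript length and GC content removed, the PPAT value was -0.34 (adjusted p = 0.0315).

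GART carries 3 activities of the route, among them glycinamide ribonucleotide formylation from formyl-tetrahydrofolate (ENSG00000159131, chromosome 21, 33503931 to 33543491, minus strand). Its level was 314 and 280 CPM in the controls and 218 and 211 CPM with METTL14, from 4238 to 6036 counts. All 4 libraries were well covered and the groups were apart, but the fall was small (1.39-fold, log2 fold change -0.47, SE 0.102, edgeR adjusted p = 0.0067) and was not called when METTL14 replicate 1 (adjusted p = 0.0895) or replicate 2 (adjusted p = 0.119) was left out. GART shares 275 exon bases with SON on the other strand, and whether counting used strand is not stated in the sources used here.

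PFAS, the glutamine-using formylglycinamidine synthase, showed the largest fall of the 10 (ENSG00000178921, chromosome 17, 8247618 to 8270491, plus strand). The controls held 2004 and 1331 counts (104.2 and 68.3 CPM) and the METTL14 libraries 537 and 587 (27.6 and 29 CPM). The controls were far apart, at 1.53-fold, and both were still above both METTL14 libraries. PFAS fell 3.05-fold (log2 fold change -1.61, SE 0.195, edgeR adjusted p = 0.000549), with -1.27 when control replicate 1 was left out and -1.88 when control replicate 2 was.

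PAICS, which adds carbon dioxide and then aspartate later in the route, was clearly lower (ENSG00000128050, chromosome 4, 56435741 to 56464579, plus strand). It stood at 583 and 591 CPM in the controls and 252 and 255 CPM with METTL14. Here the replicates of each group were within 2% of each other, and the fall was 2.32-fold (log2 fold change -1.21, SE 0.0931, edgeR adjusted p = 0.000132). Its value stayed between -1.16 and -1.22 under the 16 alternatives run.

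ADSL, adenylosuccinate lyase, releases fumarate both on the way to IMP and in the AMP branch (ENSG00000239900, chromosome 22, 40346500 to 40390463, plus strand). It had 166 and 142 CPM in the controls and 69.8 and 66.8 CPM with METTL14, and the groups were apart. The fall was 2.26-fold (log2 fold change -1.18, SE 0.113, edgeR adjusted p = 0.000241). ADSL is the only one of the 10 whose counts were not whole numbers: a further row with the same symbol (ENSG00000284431, 1344 exon bases shared) held 59.6 to 96.9 counts, at most 6.68% of the 2 rows together, and with both rows summed the value was -1.13.

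ATIC, which adds the last formyl group and closes the ring to IMP, changed less (ENSG00000138363, chromosome 2, 215311817 to 215349773, plus strand). Its level was 250 and 214 CPM in the controls and 183 and 177 CPM with METTL14. The controls differed from each other by more than the gap between the groups, and the fall was 1.28-fold (log2 fold change -0.36, SE 0.11, edgeR adjusted p = 0.0266). The ATIC call was lost without METTL14 replicate 1 (adjusted p = 0.195), without replicate 2 (0.254) and after removal of the trend on length and GC (0.0583).

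IMPDH2 and GMPS turn IMP into GMP, the former by the oxidation that limits the rate of the branch and the latter with glutamine. IMPDH2 (ENSG00000178035, chromosome 3, 49024325 to 49029408, minus strand) had 416 and 407 CPM in the controls and 337 and 329 CPM with METTL14, a 1.24-fold fall (log2 fold change -0.31, SE 0.0926, edgeR adjusted p = 0.0256). GMPS (ENSG00000163655, chromosome 3, 155870536 to 155944026, plus strand) had 169 and 152 against 125 and 130.3 CPM, a 1.26-fold fall (-0.33, SE 0.102, edgeR adjusted p = 0.0277). Both genes were lower in each METTL14 library than in each control, by small amounts. For IMPDH2 the adjusted p was 0.283 without METTL14 replicate 1, 0.342 without replicate 2 and 0.140 with the trend removed, and for GMPS it was 0.320, 0.214 and 0.0852, so neither call held under these.

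CAD, a single protein with the first 3 activities of pyrimidine synthesis, was not called (ENSG00000084774, chromosome 2, 27217390 to 27243943, plus strand). Control libraries held 5551 and 4366 counts and METTL14 libraries 4286 and 4365, or 289 and 224 CPM against 220 and 216 CPM. Control replicate 2 was close to the METTL14 libraries and control replicate 1 was above them (log2 fold change -0.23, SE 0.133, edgeR adjusted p = 0.173). The value was -0.04 (adjusted p = 0.63) without control replicate 1 and -0.41 (4.22e-10) without control replicate 2. With the length and GC trend removed it was -0.76 and was called (adjusted p = 0.00298). Whether CAD was called thus turned on control replicate 2 and on that trend.

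CTPS1, which aminates UTP to CTP with glutamine, was again clearly lower (ENSG00000171793, chromosome 1, 40979335 to 41012565, plus strand). The controls held 1667 and 1146 counts (86.7 and 58.8 CPM) and the METTL14 libraries 607 and 632 (31.2 and 31.2 CPM). As for PFAS, the controls differed widely (1.47-fold) while the METTL14 libraries were nearly equal. The fall was 2.33-fold (log2 fold change -1.22, SE 0.182, edgeR adjusted p = 0.00128), with -0.91 without control replicate 1 and -1.48 without control replicate 2.

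**Figure D2:**
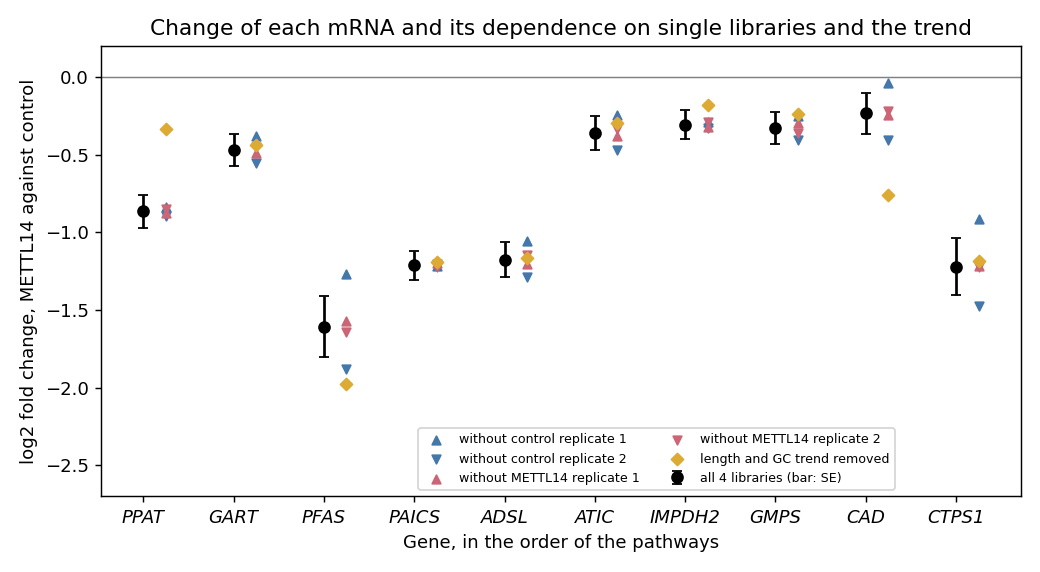
Log2 fold change of each mRNA, METTL14 against control, from all 4 libraries (black, bar SE), with each library left out in turn (triangles) and after removal of the trend on length and GC (diamonds). PFAS, CTPS1, PAICS and ADSL stay at -0.91 or below in all of these, whereas PPAT moves to -0.34 and CAD to -0.76 once the trend is removed.

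By function, the glutamine-using enzymes were spread over the whole range of log2 fold changes: PFAS (-1.61), CTPS1 (-1.22), PPAT (-0.86), GMPS (-0.33) and CAD (-0.23). The enzymes that take a formyl group from folate, GART (-0.47) and ATIC (-0.36), lay among the 4 smaller falls. The 10 genes together summed to 2320 and 2218 CPM of the unscaled library totals (control) and 1514 and 1505 (METTL14), which is 2269 ± 72.0 against 1510 ± 6.08 (SD, n = 2), or 1.503-fold less. The groups did not overlap, and a two-sided exact permutation test gave p = 0.333, the smallest p that 2 against 2 libraries allow. Of the 10 genes, 9 were higher in control replicate 1 than in control replicate 2 (the exception was PAICS), by a median of 1.14-fold, where the median over all genes tested was 0.995. The METTL14 libraries were within 0.951 to 1.05-fold of each other for all 10.

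Compared per length (TPM, the share of each transcript after counts are divided by the union length of a gene's exons, on the scale of CPM), IMPDH2 was the highest of the 10 in the controls, at 503 ± 5.76 TPM (SD, n = 2). It was followed by PAICS (265 ± 9.88), ATIC (199.7 ± 16.6), GART (129.7 ± 6.9), CAD (103 ± 15.6), ADSL (73.5 ± 6.0), GMPS (61.2 ± 2.82), PFAS (45.0 ± 12.1), PPAT (33.5 ± 0.0506) and CTPS1 (21.3 ± 5.22 TPM). No neighbours in this order overlapped between their 2 libraries, though 2 libraries measure a spread poorly. In the METTL14 libraries the order was IMPDH2 (406.7 TPM), ATIC (155.6), PAICS (114.3), GART (93.7), CAD (87.7), GMPS (48.7), ADSL (32.6), PPAT (18.4), PFAS (14.8) and CTPS1 (9.18 TPM), so PAICS now stood below ATIC, ADSL below GMPS and PFAS below PPAT. The order depends on the length used: with the longest transcript in place of the exon union, ATIC (255 TPM) stood above PAICS (227 TPM) in the controls already, ADSL (88.6 TPM) above CAD (88.2 TPM) and CTPS1 (34.1 TPM) above PPAT (33.3 TPM).

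Several steps are served by paralogs, and ratios within a library need no scaling between libraries. Such ratios do not remove the trend of the fold changes on transcript length and GC content. CTPS1 had 3.33 and 2.24 counts for each count of its paralog CTPS2 in control libraries and 1.29 and 1.37 in METTL14 libraries, so the ratio was 2.05-fold lower (both METTL14 libraries below both controls, exact permutation p = 0.333, the smallest possible). CTPS2 itself, at 26.1 and 26.3 against 24.1 and 22.8 CPM, was not called (log2 fold change -0.16, edgeR adjusted p = 0.281). The ratio of PRPS1 to PRPS2, the synthetases that make phosphoribosyl pyrophosphate, was 1.59 and 1.62 in control libraries and 1.04 and 1.09 in METTL14 libraries (1.51-fold lower, the same p). For IMPDH2 to IMPDH1 the ratio was 2.35 and 3.08 in control libraries and 2.80 and 2.86 in METTL14 libraries, and the groups overlapped (exact permutation p = 1).

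PAICS and PPAT, on either side of the stretch printed above, had a ratio of 10.7 and 11.2 in control libraries and 8.45 and 8.73 in METTL14 libraries (per exon length 7.71 and 8.11 against 6.12 and 6.32). Both mRNAs fell, and the ratio was 1.27-fold lower (exact permutation p = 0.333). A GENCODE start of another protein-coding gene on the other strand within 1000 bases was then looked for, after the values were seen. It was sought among the gene rows of the libraries, beside the other 8 genes and 10 further genes of the same routes. It was found for GART (SON) and PFAS (CTC1, a telomere maintenance factor), and for none of the further genes. SON had 344 and 319 CPM in the controls and 307 and 328 CPM with METTL14 (log2 fold change -0.06, SE 0.0994, edgeR adjusted p = 0.626). CTC1 had 32.1 and 32.6 CPM in the controls and 29.7 and 31.2 CPM with METTL14 (-0.09, SE 0.11, edgeR adjusted p = 0.532). These neighbours were not called, where GART and PFAS were. By their GENCODE bounds, SON and GART overlap at their 5' ends, with starts 873 bases apart, and so do CTC1 and PFAS (477 bases). The RefSeq start of PFAS, used for its promoter window, is at 8249289, whereas its GENCODE start is at 8247618. Whether PFAS and CTC1 overlap therefore depends on the start used. PPAT and PAICS do not overlap, so by the GENCODE bounds the pairs are not arranged alike.

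**Figure D3:**
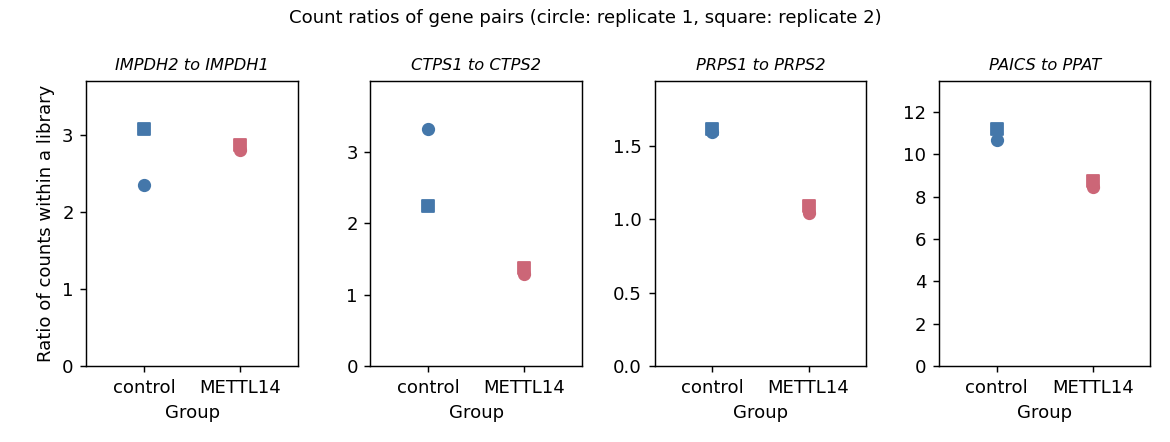
Ratio of the counts of 2 genes within each library, for 3 paralog pairs and for PAICS to PPAT, with controls in blue and METTL14 libraries in red and each axis starting at 0. The groups are apart for CTPS1 to CTPS2, PRPS1 to PRPS2 and PAICS to PPAT, and overlap for IMPDH2 to IMPDH1, where the controls are at 2.35 and 3.08.

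Of 10 further genes of the same routes, 4 were lower, 2 higher and 4 not called, against 28.1% lower and 27% higher over all genes tested. Their median log2 fold change was -0.31. Both METTL14 libraries lay below both controls for 8 of them and above both for 2, patterns seen in 40% and 39.8% of the genes tested. With the length and GC trend removed, 5 were lower, against 26.3% of all genes tested. ADSS2, which with ADSL makes AMP, fell from 67.4 and 59.8 to 20.9 and 24.0 CPM (log2 fold change -1.50, SE 0.127). Its paralog ADSS1, known from muscle, rose from 5.77 and 6.11 to 11.4 and 13.3 CPM (1.06, SE 0.174) at a much lower level. UMPS, which closes the route to UMP and also activates 5-FU, fell from 76.1 and 58.7 to 35.3 and 31.3 CPM (-1.02, SE 0.15).

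PRPS1 was lower as well, at 102.3 and 97.1 against 56.6 and 58.9 CPM (log2 fold change -0.79, SE 0.0966). PRPSAP1, an associated protein of the synthetases, was higher (0.42, edgeR adjusted p = 0.0108), a call lost without either METTL14 library. DHODH, the mitochondrial enzyme between CAD and UMPS, had 15.4 and 13.7 CPM against 11.1 and 10.7 CPM and passed only narrowly (-0.41, edgeR adjusted p = 0.0473). The DHODH call was lost under 10 of the 16 alternatives. PRPS2 (-0.20), PRPSAP2 (-0.22), IMPDH1 (-0.40, edgeR adjusted p = 0.0511) and CTPS2 were not called. IMPDH1 was called lower under 7 of the 16 alternatives, with -0.17 without control replicate 1, -0.60 without control replicate 2 and -0.64 with the trend removed. PRPS2 was called lower without control replicate 2 (-0.25) and PRPSAP2 without either control library (-0.22 in each case), and with the trend removed their values were 0.05 and 0.04, not called. Without control replicate 2, 7 of these 10 were lower, and without either METTL14 library 3 were lower and 1 was higher.

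Of 21 salvage and interconversion genes, which reuse bases and nucleosides, 9 were lower, 4 higher and 8 not called (median -0.26), where 28.1% of all genes tested were lower and 27% higher. APRT, adenine phosphoribosyltransferase, fell from 109 and 105.2 to 38.5 and 36.6 CPM (log2 fold change -1.51, SE 0.0981) and HPRT1, which salvages hypoxanthine and guanine, from 82.2 and 83.2 to 48.3 and 48.5 CPM (-0.77, SE 0.0953). With the length and GC trend removed HPRT1 was at -0.28 (edgeR adjusted p = 0.0408). PNP, purine nucleoside phosphorylase, fell also (-0.91, SE 0.0966). AMPD2, AMP deaminase, rose from 59.2 and 59.6 to 153 and 136 CPM (1.28, SE 0.105).

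Of 13 genes that supply carbon and nitrogen, 4 were lower and 5 higher (median -0.06), against 28.1% lower and 27% higher over all genes tested. MTHFD1, which makes the formyl-tetrahydrofolate used by GART and ATIC, fell from 474 and 410 to 207 and 205 CPM (log2 fold change -1.10, SE 0.108). Genes of glutamine supply rose: GLUL, glutamine synthetase (0.65, SE 0.0927), and SLC1A5, a glutamine transporter, from 385 and 333 to 672 and 640 CPM (0.87, SE 0.109). The number of lower genes in this list was 8 without control replicate 1, 2 without METTL14 replicate 1 and 1 without METTL14 replicate 2.

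Among 12 regulators of the routes 5 were higher, 2 lower and 5 not called (median 0.05), against 27% higher and 28.1% lower over all genes tested. MYC is a transcription factor known to drive many of the 10 genes through E-boxes. Its mRNA was higher, at 99.5 and 83.4 CPM in the controls and 245 and 232 CPM with METTL14 (log2 fold change 1.38, SE 0.118, edgeR adjusted p = 0.000171). Only mRNA was measured here, and the part of MYC in the results for the 10 genes was not tested. MXD4, which competes with MYC for MAX, was higher too, at 27.9 and 37.3 against 94.4 and 86.3 CPM (1.47, SE 0.15). E2F1, a factor of entry into S phase, fell from 89.8 and 61.0 to 34.4 and 30.4 CPM (-1.22, SE 0.187), and MTOR, whose kinase signals to CAD, rose (0.63, SE 0.0963). Removal of the length and GC trend brought MTOR to 0.30 (edgeR adjusted p = 0.0349). With that trend removed, or without either METTL14 library, 3 regulators were higher. Without control replicate 2, 6 were lower, and without METTL14 replicate 2, 1 was.

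Genes of dividing cells were lower beside the 10: all 6 examined fell, against 28.1% of all genes tested, among them MKI67 (log2 fold change -1.77, SE 0.117), PCNA (-1.70, SE 0.118), CCNB1 (-1.96, SE 0.0976) and TYMS (-2.01, SE 0.152). The 6 summed to 2412 and 2162 CPM in the controls and 651 and 677 CPM with METTL14. Their median, -1.86, was below that of the 10 synthesis genes, and their part in the result for these was not tested.

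**Figure D4:**
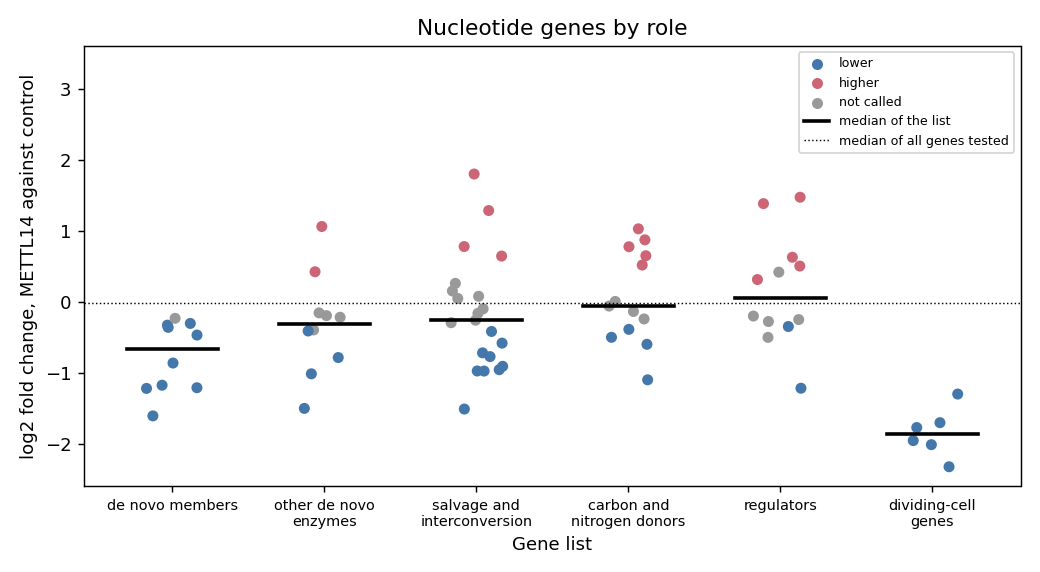
Log2 fold change, METTL14 against control, of each gene in 6 lists (1 point per gene, blue lower, red higher, grey not called), with the median of each list as a bar and the median of all genes tested as a dotted line. The 10 de novo genes lie between -1.61 and -0.23, the salvage, donor and regulator lists spread to both sides of 0, and the dividing-cell genes lie between -2.32 and -1.30.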

How the data were processed

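Poly(A) RNA of 4 libraries was measured. The authors deposited expected counts for each gene, not normalized (10.8 to 11.6% of values are not whole). The submitters' processing notes name RSEM, Bowtie2, HISAT2, StringTie, fastp and the build hg18. Of 20323 gene identifiers 20171 are in GENCODE release 29 (GRCh38), the source of positions and lengths here, and the build behind the counts is therefore uncertain. RSEM shares reads between similar genes, so paralog values can be less certain. The counts of CTPS1, CTPS2, IMPDH1, IMPDH2, PRPS1 and PRPS2 were whole numbers in every library.

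Counts were rounded and fitted over all genes in edgeR 4.0.16 (R 4.3.3): filterByExpr (minimum count 10), TMM, robust quasi-likelihood test, no covariate, Benjamini-Hochberg over 12700 genes, threshold 0.05. SE was taken as the size of the log2 fold change over the square root of F. With 2 libraries a group, p-values rest on the spread shared over genes. Whether the replicate numbers stand for the 2 independent experiments is not stated in the labels.

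The 10 genes and all lists were chosen with earlier results of these data known. Named are the 10 genes, the other de novo genes and, in each further list, the 4 smallest p-values plus MYC and HPRT1. Some genes under this rule are not reported here. Neighbouring genes were added after the values were seen. A symbol with several rows used the row with the highest mean. Alternatives were DESeq2 1.42.0, limma-voom (limma 3.58.1), RLE factors, library totals, the replicate number as a block, other filters (none, or 5 CPM in 2 libraries), a non-robust fit, a 1.5-fold test, no mitochondrial genes, a loess trend on length and GC (span 0.5), each library left out and, chosen after seeing the data, summed ADSL rows and the trend removed for the further lists. Other calculations used Python 3.11.15, pandas 2.3.3 and scipy 1.17.1.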

Additional observations from a re-analysis of the deposited data

How the results depend on the processing

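Under 16 alternatives the 10 genes kept a negative log2 fold change throughout, and 143 of 160 calls were as in the report, 15 were lost and 2 (both of CAD) were gained. The number of the 10 called lower was 5 to 10 over the fits that left out 1 library and 5 in the test against 1.5-fold, and none was called higher in any. A left-out library leaves a lone sample assumed to vary like the other group. Over all genes, 2307 to 4575 were lower and 2307 to 4452 higher with a library left out, and 1357 lower and 1416 higher in the test against 1.5-fold. The cause was not tested. With the length and GC trend removed, 7 of the 10 were lower and none higher, with 3334 lower and 3235 higher over all genes. With replicate number as a block, 9 of the 10 were lower and none higher, with 3903 lower and 3797 higher over all genes. The labels do not say that the numbers pair libraries, and deviations of the libraries numbered 1 correlated at 0.0443. The log2 change of the summed share of counts of the 10 genes was -0.59, -0.62 to -0.55 with a library left out, and -0.53 without mitochondrial counts. The log2 change of the IMPDH2 to IMPDH1 ratio was 0.08 and reversed to -0.12 without control replicate 1 (0.06 to 0.27 without another library). With a library left out, that of CTPS1 to CTPS2 was -1.32 to -0.75, of PRPS1 to PRPS2 -0.63 to -0.56 and of PAICS to PPAT -0.38 to -0.31. These ranges do not cover the length and GC trend, because the ratios were not computed with it removed. Of depth, the 10 genes had at least 537 counts in every library.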
